A study of Ictalurus punctatus x Ictalurus furcatus and Ictalurus furcatus and Ictalurus punctatus with 8 samples.

Results

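The genes of the cytosolic ribosome were followed in the livers of channel catfish, blue catfish and their reciprocal hybrids. They were taken by symbol: every gene named rpl or rps with a number, with or without 1 added letter or digit, together with rplp0, rplp1, rplp2 and rpsa, and without the ribosomal S6 kinases. The rule found 75 of 13444 genes, 46 of them named for the large subunit and 29 for the small subunit, and all 75 passed the filter on low values. The symbol rplp2 itself was not among the genes found. The groups were F1BC, the hybrid of a female blue catfish and a male channel catfish; F1CB, the hybrid of a female channel catfish and a male blue catfish; PC, channel catfish; and PB, blue catfish. Each group had 2 livers, all from fish of 12 months of age that were reared indoors with each genetic type in a tank of its own, so type and tank cannot be told apart. Reads of all 4 types were mapped to the channel catfish genome, and a difference in mapping between blue and channel alleles cannot be told apart from a difference in RNA level. In a bulk liver sample, fewer cells of a type and less RNA per cell cannot be told apart either.

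Ribosomal proteins clothe the ribosomal RNA of the small subunit, which reads the messenger RNA, and of the large subunit, which joins amino acids. In vertebrates each protein is usually made from a single expressed gene, and the proteins are needed in near equal numbers, since surplus copies are degraded. Their messenger RNAs begin with a terminal oligopyrimidine tract, through which mTOR signalling controls how actively they are translated. In the liver, which exports large amounts of plasma protein, ribosomes are numerous and these messenger RNAs are among the most abundant.

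The deposited values are CPM, that is, each gene's reads relative to the total of its library, and each of the 8 libraries summed to between 996838 and 998652. The levels given are CPM after median-of-ratios scaling, with library factors between 0.794 and 1.202, and are called scaled CPM. The top 20 genes by level made up 28.3% to 39.03% of the libraries, more in both F1BC livers than in any other. No read depth was found for these libraries, so the precision of a value rests on how far livers of the same type lay apart. That spread may be technical. The p-values use a spread for each gene that is pooled over the 4 types and moderated by the spread of all genes. They do not measure the spread of the compared types alone. Hepatocyte markers such as the apolipoproteins and fibrinogens took 14.5% to 23.1% of each library. Markers of exocrine pancreas took 0.0236% to 0.385% and of red blood cells 0.0385% to 0.184%, with a large spread between livers of the same type.

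Cytosolic ribosomal protein genes held a large share of every library, and PC livers were at the low end. As a percentage of the deposited CPM, the genes summed to 7.49% and 8.52% in F1BC livers, 9.62% and 8.68% in F1CB livers, 6.76% and 8.15% in PC livers, and 8.64% and 10.5% in PB livers. The means were 8.01% ± 0.730 in F1BC, 9.15% ± 0.666 in F1CB, 7.46% ± 0.984 in PC and 9.54% ± 1.28 in PB (SD, n = 2 each). PC liver 1 was the lowest of the 8, but PC liver 2 lay above F1BC liver 1, so the shares of F1BC and PC overlapped. F1CB and PB livers lay above both PC livers, and none of these shares was tested. After scaling, the median gene stood at 934 and 1256 CPM in F1BC livers, 1161 and 837 CPM in F1CB livers, 623 and 757 CPM in PC livers, and 944 and 1006 CPM in PB livers. On this scale both PC livers lay below the other 6, while the livers of F1BC, F1CB and PB overlapped.

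**Figure D1:**
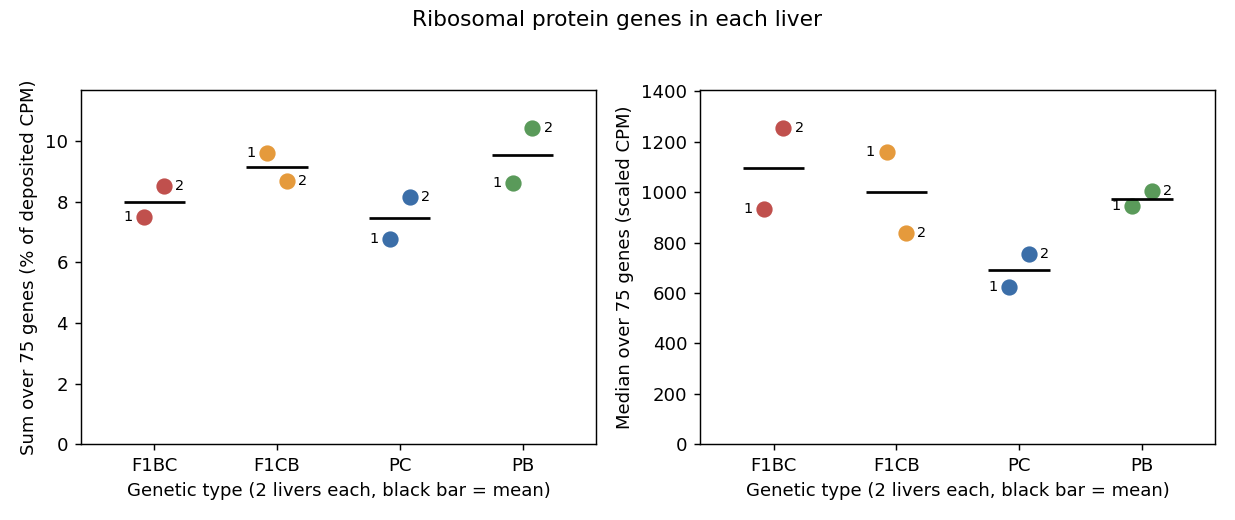
Left, the summed share of the 75 ribosomal protein genes in the deposited CPM of each liver (%); right, the median level over the 75 genes (scaled CPM), by genetic type, with points numbered 1 and 2 for the 2 livers and a black bar for their mean. The PC livers had 6.76% and 8.15% of the library and medians of 623 and 757 scaled CPM, the lowest medians of the 8 livers.

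The most abundant genes were all of the small subunit. The rps3a gene, whose protein sits at the solvent face of the small subunit near the mRNA exit, averaged 4319 scaled CPM over the 8 livers. It was measured at 4198 and 5659 CPM in F1BC livers, 5630.4 and 4255 CPM in F1CB livers, 2548 and 3816 CPM in PC livers, and 4211 and 4239 CPM in PB livers. Both PC livers lay below the other 6, yet PC liver 2 was closer to the PB livers than to PC liver 1. Also among the 5 most abundant were rps9 with a mean of 3114 CPM, rps25 with 2712 CPM and rps7 with 2649 CPM. For rps9, a protein of the mRNA entry side of the subunit, PC liver 1 had 1224 CPM and PC liver 2 had 2758 CPM, against 3631 and 3903 CPM in PB livers. The rps7 gene went the other way, with 3264 and 2438 CPM in PC livers against 2113 and 2588 CPM in PB livers, and its livers overlapped between PC and PB. None of these genes passed the limma test in any of the 7 comparisons. Divided by the listed transcript length, the highest means were those of rps14 with 3863 scaled CPM per kb, rps10 with 3218 and rps9 with 3090, and rpl22l1, a paralog of rpl22, had 61.7. Listed lengths ran from 287 to 5442 bases and were not checked against the transcripts present, so this order depends on them.

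In pattern over the 75 genes, livers of the same hybrid type agreed closely and PC livers did not. The SD and Spearman's rho given here leave out a shift in level common to the genes. The SD over genes of the log2 difference between liver 1 and liver 2 was 0.19 in F1BC, 0.20 in F1CB, 0.73 in PC and 0.40 in PB. Among 1664 other genes with a mean over 50 scaled CPM the same SD was 0.65 in F1BC, 0.64 in F1CB, 1.07 in PC and 0.82 in PB, and PC livers differed most for both sets. Spearman's rho between the 2 livers over the 75 genes, which share libraries and gene lengths, was 0.98 in F1BC, 0.99 in F1CB, 0.86 in PC and 0.95 in PB. In F1BC liver 1 was below liver 2 for 74 of 75 genes (median -0.42 on the log2 scale), and in F1CB liver 1 was above liver 2 for 72 genes (median 0.41). In PC liver 1 was below liver 2 for 50 genes and above it for 25, and in PB below for 38 and above for 37, so that in the parental types the difference went both ways. The median difference was -0.31 in PC and -0.01 in PB, so the shift in level between livers was larger in the hybrid types.

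**Figure D2:**
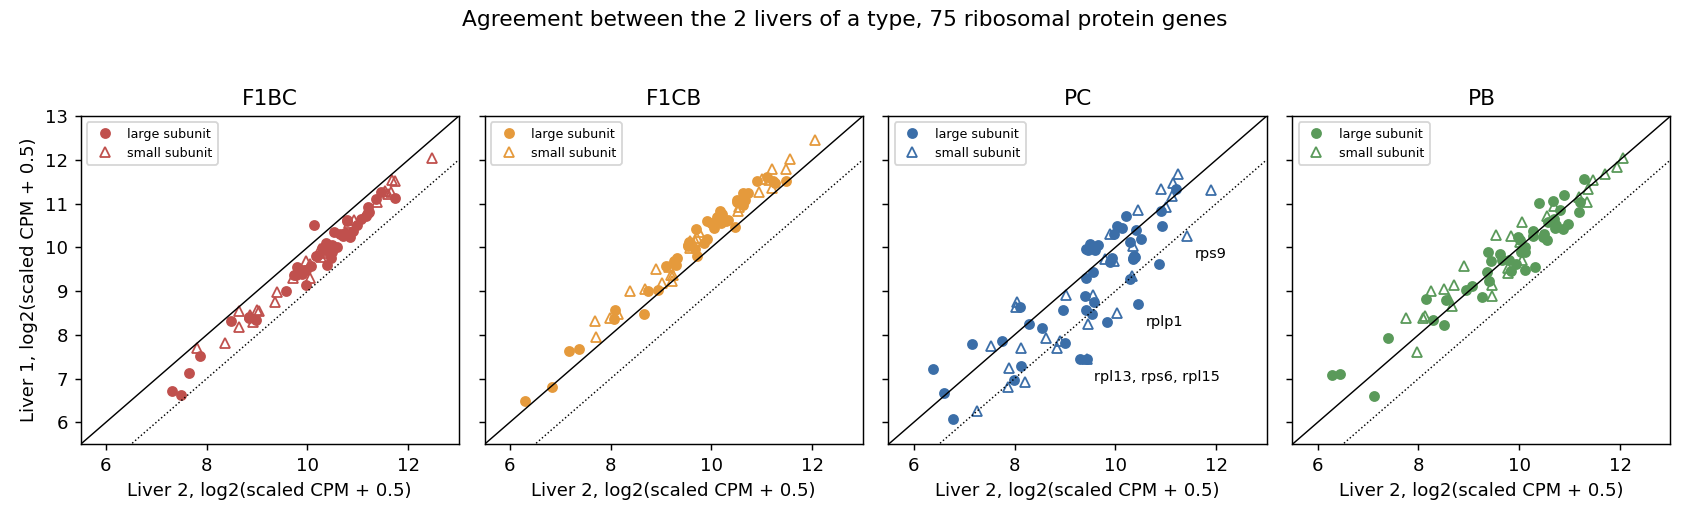
Level in liver 1 (y axis) against liver 2 (x axis) of the same type, both as log2(scaled CPM + 0.5), with filled circles for large subunit genes and open triangles for small subunit genes; the solid line marks equal levels and the dotted line a log2 difference of -1, and the rpl37 entry near 1 CPM lies outside the axes. The hybrid points follow lines parallel to equality, and in PC 17 genes lie below the dotted line.

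PC liver 1 stood apart from the other 7 libraries in the pattern of its ribosomal protein genes. It held the lowest value of the 8 livers for 43 of the 75 genes, PC liver 2 for 12, F1CB liver 2 for 9, PB liver 1 for 7 and PB liver 2 for 4. The same count was not made over all genes. The mean Spearman's rho of PC liver 1 with the other libraries over the 75 genes was 0.785, and that of each other library was between 0.916 and 0.943. Over all genes PC liver 1 was also the lowest, with 0.797 beside 0.815 to 0.889. In PC liver 1, 17 genes were below 0.5 times their level in PC liver 2, among them rpl13, rps6, rpl15, rplp1, rpl18, rpsa, rps19, rplp0 and rps9. This was a share of 22.7% beside 19.1% of other genes over 50 CPM and 14.7% of all genes. In PC liver 1 25 genes were above their level in PC liver 2, among them rpl38, rps29, rpl29, rps21, rpl34, rpl36a, rpl39, rpl32 and rpl35a. Of all 13408 genes tested 6930 were above it, and of 1664 other genes over 50 CPM 699 were. Both sets held genes of each subunit, 9 large and 8 small in the first and 16 large and 9 small in the second. Across the 75 genes, Spearman's rho of the PC difference with listed transcript length was -0.21 and with mean level -0.01. Exocrine pancreas markers took 0.0251% of PC liver 1 and 0.356% of PC liver 2, and red blood cell markers 0.0864% and 0.172%, and their part in the difference was not tested.

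The genes with the widest PC spread included core proteins of both subunits. The rps6 gene encodes the classical phosphorylated protein of the small subunit, and it had 971 and 1362 CPM in F1BC livers, 1316 and 857 CPM in F1CB livers, 175 and 696 CPM in PC livers, and 1010.4 and 1091 CPM in PB livers. The rpl15 gene had 858 and 1416 CPM in F1BC livers, 999 and 815 CPM in F1CB livers, 175 and 632 CPM in PC livers, and 1152 and 1027 CPM in PB livers. For both genes the 2 PC livers lay below all others, and the ratio between them was larger than that between any 2 of the other 6 livers. Opposite to them, rpl38 had 98.3 and 178 CPM in F1BC livers, 89.2 and 78.3 CPM in F1CB livers, 148 and 83.0 CPM in PC livers, and 134 and 77.9 CPM in PB livers, with all types overlapping except F1CB, which lay below F1BC. The steadiest gene was rps27a, a fusion of ubiquitin with a small subunit protein, whose highest liver was 1.37 times its lowest.

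**Figure D3:**
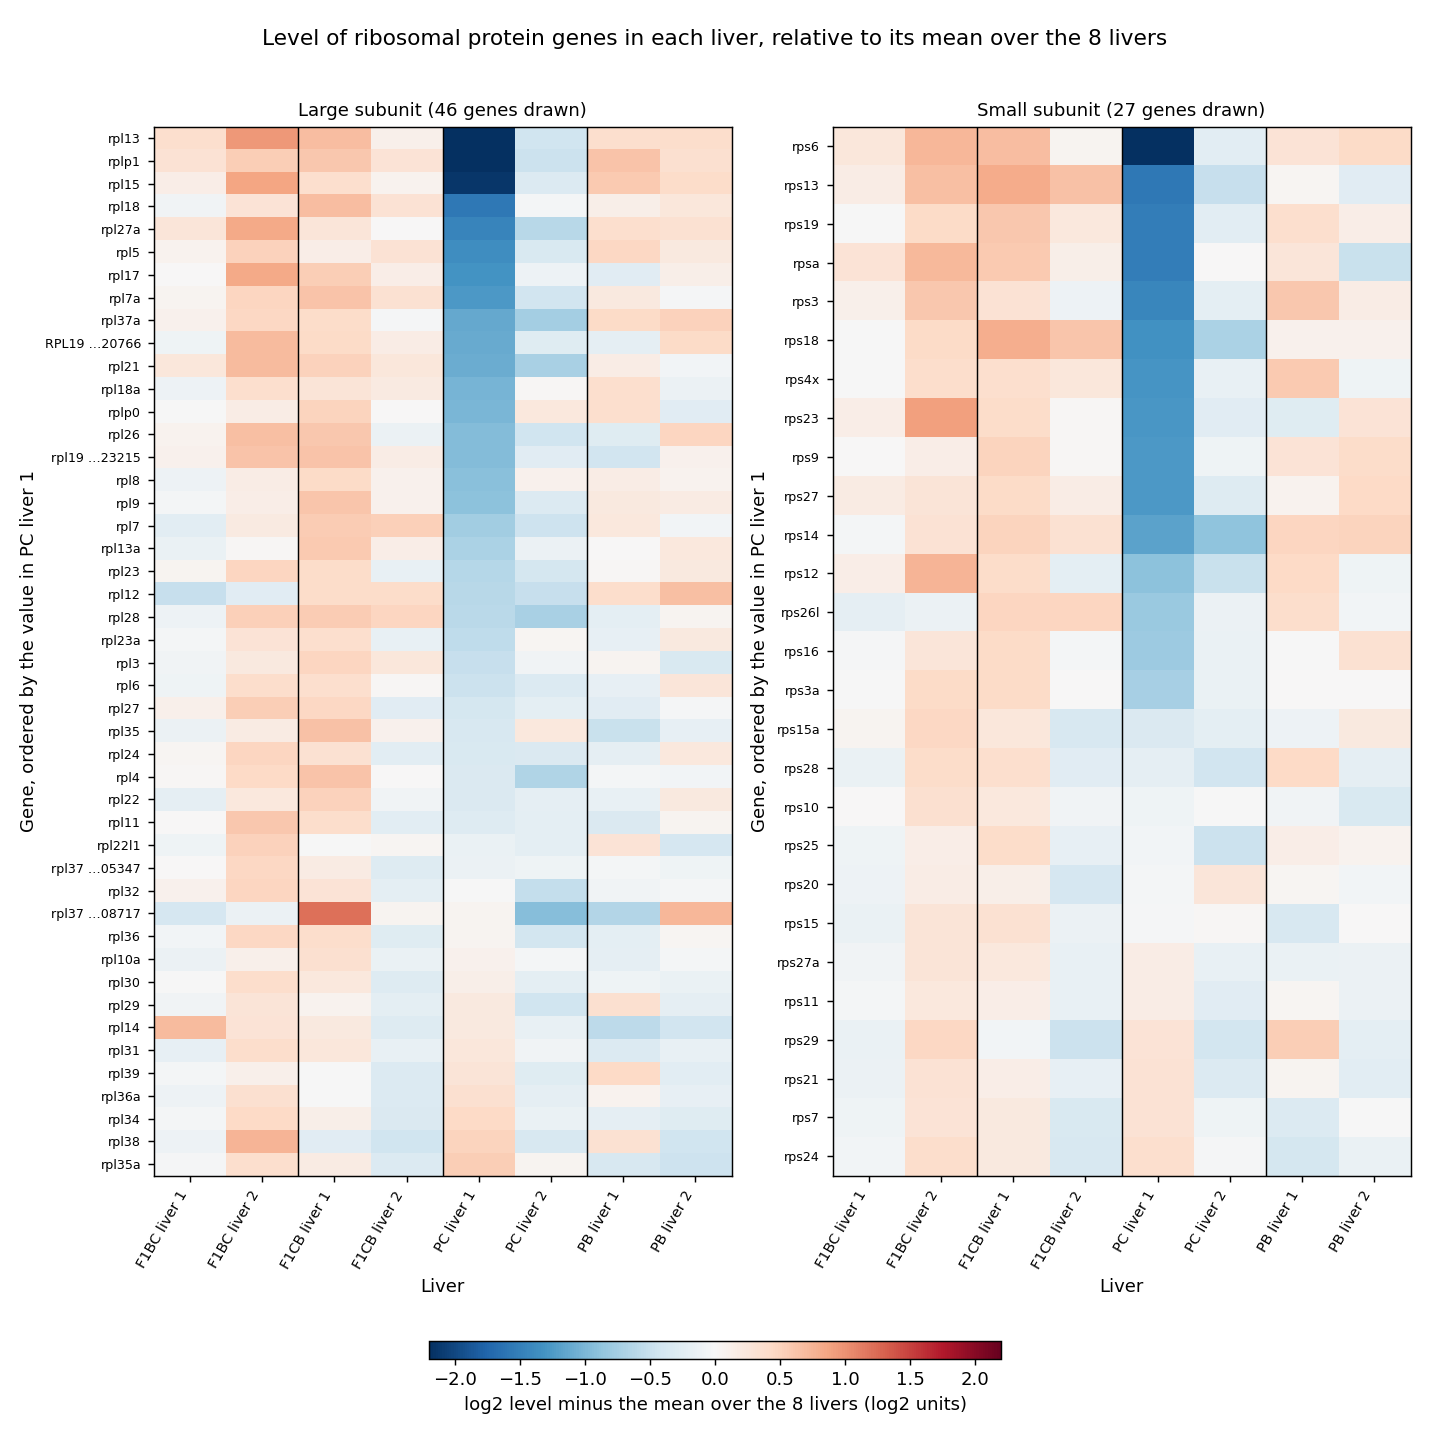
Each row is a ribosomal protein gene, with a few not drawn, and each column a liver, with colour for the log2 level minus the gene's mean over the 8 livers (log2 units, blue below and red above, with values beyond the ends of the scale in its end colours), rows ordered by PC liver 1, and the last digits of the gene identifier where a symbol is repeated. PC liver 1 holds the lowest value for 43 of 75 genes, and PC liver 2 for 12, with genes at the bottom of each panel running the other way in PC liver 1.

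PC and PB, the parental species, had more genes called between them than any other pair of types, among ribosomal protein genes as among all genes. In PC over PB 58 of 75 genes had a negative log2 fold change and 17 a positive one, with a median of -0.46, beside 49.3% positive and a median of -0.02 over all 13408 genes tested. Genes past both thresholds (limma, adjusted p under 0.05 over all genes and an absolute log2 fold change over 1.5) numbered 3, all lower in PC, against 16% of all genes tested in either direction and 7.2% in that direction. The share of ribosomal protein genes called was below the background, at 3 of 75. Among 352 other genes with a mean over 300 CPM, a level picked after the values were known, the median was -0.0056 and 176 were positive. An adjusted p under 0.05 without the fold threshold was reached by 5 genes, all lower in PC, beside 8.03% of all genes in that direction. An unadjusted p under 0.05 was reached by 17, all lower in PC. Of the 13408 genes tested 2198 reached it in that direction, and 33.7% in either direction. The PC livers lay wholly below the PB livers for 39 genes and wholly above for 6, beside 28.3% and 28.6% of all genes. Of the cell type markers in PC over PB, 0 of 7 exocrine pancreas markers were positive (median -1.05, 0 called and 1 at an unadjusted p under 0.05 by limma). Of 15 hepatocyte markers 5 were positive (median -0.37, 1 called higher and 1 called lower in PC). Immune markers went the other way, with 5 of 6 positive (median 0.51, 1 called higher). Red blood cell markers were split, with 3 of 6 positive (median 0.32, 1 called higher). Biliary markers had 2 of 6 positive (median -0.52, 0 called), and stromal markers 1 of 5 (median -0.54, 1 called lower in PC). The part of these cell types was not tested.

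The 3 genes called lower in PC were rps14, rplp1 and rpl13. The rps14 gene, whose protein lies at the platform of the small subunit, had 827 and 1010.3 CPM in PC livers, against 2597 and 2626 CPM in PB livers, and F1BC livers had 1811 and 2315 CPM and F1CB livers 2621 and 2354 CPM. Its PC livers were close to each other and below all other livers. The log2 fold change of PC over PB was -1.51 ± 0.39 (SE, adjusted p = 0.0222 by limma). The rplp1 gene encodes an acidic protein of the ribosomal stalk, which recruits elongation factors, and had 414 and 1404 CPM in PC livers, against 3017 and 2496 CPM in PB livers. The 2 PC livers differed by more than the PB livers did and neither reached them, and the log2 fold change was -1.85 ± 0.53 (SE, adjusted p = 0.0338 by limma). The rpl13 gene, of the large subunit, had 174 and 694 CPM in PC livers, against 1226 and 1241 CPM in PB livers, with a log2 fold change of -1.83 ± 0.57 (SE, adjusted p = 0.0470 by limma). The spread between the PC livers of rpl13 was the widest of all ribosomal protein genes, with its highest liver over the 8 at 10.6 times its lowest.

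The number of the 75 genes called in PC over PB depended on single livers. The number over all genes with a liver left out is not given here. The median was -0.32 without PC liver 1 and -0.58 without PC liver 2, negative in both cases. The rpl13 log2 fold change was -0.84 and that of rplp1 -0.98 without PC liver 1, while that of rps14 was -1.38. None of the calls in PC over PB held with every library left out in turn.

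The other genes with an adjusted p under 0.05, short of the fold threshold, were rpl37a and rpl27a. The rpl37a gene, for a zinc-binding protein of the large subunit, had 286 and 371 CPM in PC livers, against 833 and 889 CPM in PB livers, a log2 fold change of -1.40 (adjusted p = 0.0285 by limma). The rpl27a gene had 157 and 280 CPM in PC livers, against 552 and 536 CPM in PB livers, a log2 fold change of -1.38 (adjusted p = 0.0396 by limma). For both genes the PC livers were the lowest 2 of the 8. Without PC liver 1 the log2 fold change was -1.22 for rpl37a (adjusted p = 0.103 by limma) and -0.97 for rpl27a (adjusted p = 0.183 by limma). The number of genes with an adjusted p under 0.05 also depended on single livers. In the other direction the largest value was that of rpl35a, at 979 and 699 CPM in PC livers, against 525 and 490 CPM in PB livers, where the livers did not overlap but the log2 fold change of 0.71 did not pass (adjusted p = 0.234 by limma). By subunit, the median log2 fold change of PC over PB was -0.43 over 46 large subunit genes and -0.53 over 29 small subunit genes.

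**Figure D4:**
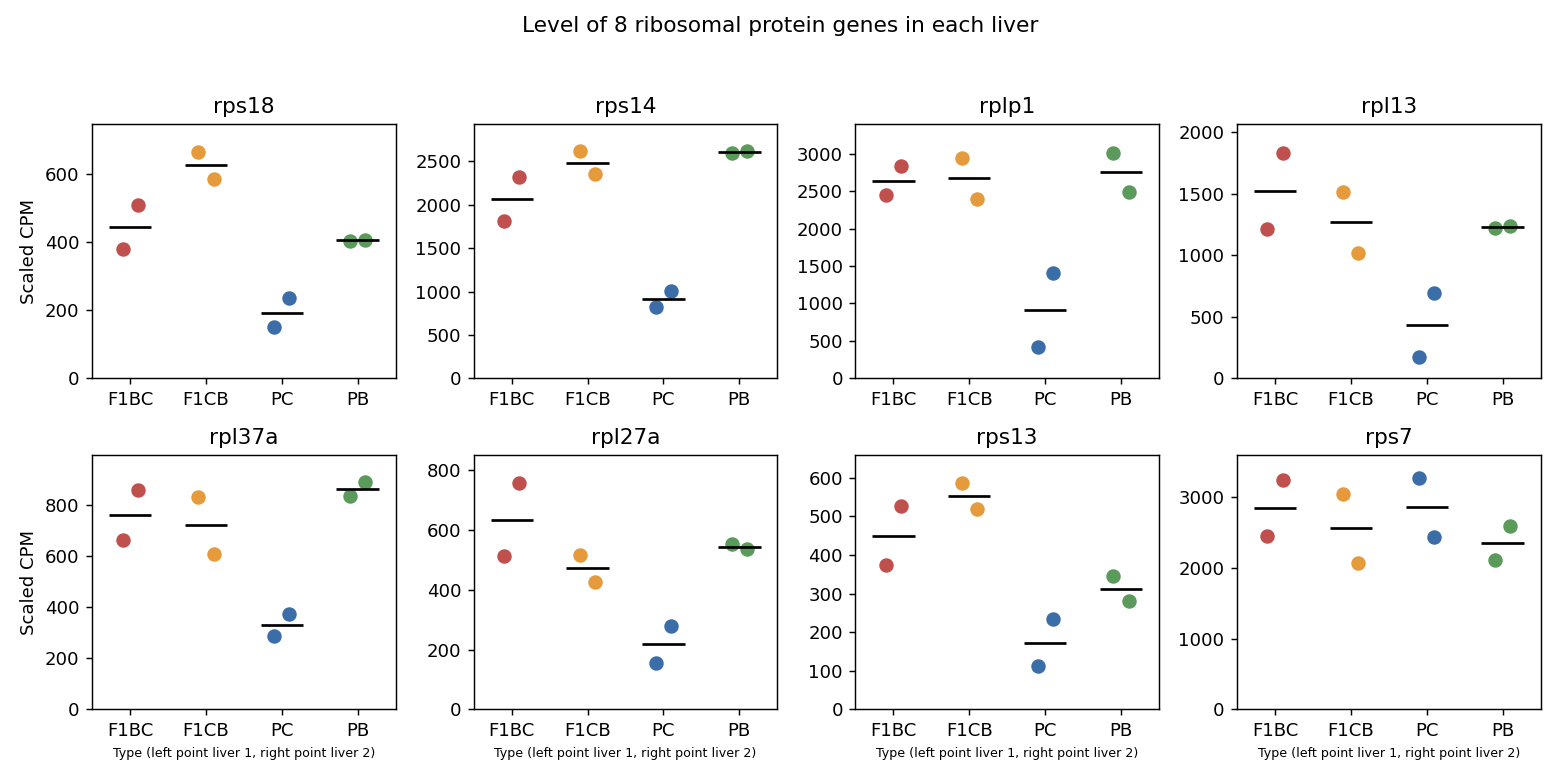
Level of 8 ribosomal protein genes in each liver (scaled CPM, axes from 0), with the left point of a type for liver 1, the right point for liver 2 and a black bar for the mean. In rps14, rpl37a and rpl27a both PC livers lie below the other 6, in rpl13 and rplp1 the 2 PC livers are far apart (174 and 694 CPM, 414 and 1404 CPM), and rps7, shown as an abundant gene with no such pattern, overlaps between PC and PB.

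Hybrid livers were next compared with channel catfish livers. In F1BC over PC 70 of 75 genes had a positive log2 fold change, beside 49.4% of all genes, and the median was 0.55. In F1CB over PC 63 were positive, beside 49.1% of all genes, and the median was 0.66. These 2 comparisons share the PC livers and so are not independent. Over all genes tested the medians were -0.01 in F1BC over PC and -0.02 in F1CB over PC. Genes as abundant as these also ran higher in the hybrids: among the 352 other genes with a mean over 300 CPM the median was 0.43 in F1BC over PC and 0.25 in F1CB over PC, with 69.6% and 63.1% positive. Over other genes with a mean over 50 CPM the medians were 0.23 in F1BC over PC and 0.22 in F1CB over PC, and over 100 CPM they were 0.34 and 0.27. Among the 68 ribosomal protein genes over 300 CPM 92.6% were positive in F1BC over PC and 83.8% in F1CB over PC.

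Cell type markers had the following values in the same comparisons. Hepatocyte markers took 20.5% and 23.1% of F1BC libraries, 19.0% and 15.2% of F1CB libraries, and 16.3% and 14.5% of PC libraries, and 13 of 15 were positive in F1BC over PC (median log2 fold change 0.79) and 12 in F1CB over PC (median 0.58). All 7 exocrine pancreas markers were positive in F1CB over PC (median 1.52) and 4 in F1BC over PC (median 0.16). Of 6 immune markers 0 were positive in F1CB over PC (median -1.36) and 4 in F1BC over PC (median 0.24). Of 6 red blood cell markers 1 was positive in F1CB over PC (median -1.37) and 1 in F1BC over PC (median -0.60). Biliary markers had 4 of 6 positive in F1CB over PC (median 0.14) and 4 in F1BC over PC (median 0.43). Stromal markers had 2 of 5 positive in F1CB over PC (median -0.30) and 2 in F1BC over PC (median -0.20). Called by limma were 1 hepatocyte marker, higher in F1BC, and 1 immune and 1 red blood cell marker, both lower in F1CB. Of all genes 0.947% were called in F1BC over PC and 2.17% in F1CB over PC. In F1CB over PC 5 hepatocyte, 4 immune, 3 red blood cell, 2 stromal and 1 biliary marker had an unadjusted p under 0.05. In F1BC over PC 5 hepatocyte, 2 biliary and 1 red blood cell marker had. The shares of all genes were 21.3% and 16.3%. The part of these cell types in the ribosomal protein values was not tested.

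Few ribosomal protein genes passed the test between hybrids and PC. In F1BC over PC no gene was past both thresholds or had an adjusted p under 0.05 by limma, against 0.947% of all genes called. An unadjusted p under 0.05 was reached by 22, all higher in F1BC. Of the 13408 genes tested 1225 reached it in that direction, and 16.3% in either direction. In F1CB over PC 1 gene was called, against 2.17% of all genes. An unadjusted p under 0.05 was reached by 23, all higher in F1CB, beside 1477 of the 13408 genes tested in that direction and 21.3% in either direction. Livers did not overlap for 44 genes in F1BC over PC and also for 44 genes in F1CB over PC, all higher in the hybrid, beside 24% of all genes that lay wholly higher in F1BC and 24.6% in F1CB. None lay wholly lower, beside 23.8% of all genes in F1BC and 25.9% in F1CB. Among the other genes over 300 CPM the shares wholly higher were 46.9% in F1BC and 40.9% in F1CB. The number called depended on single livers. With each library left out, the median log2 fold change ran between 0.37 and 0.74 in F1BC over PC. In F1CB over PC it ran between 0.44 and 0.87.

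The gene called in F1CB over PC was rps18, for a protein of the head of the small subunit. It had 666 and 585 CPM in F1CB livers, against 151 and 235 CPM in PC livers, and it had 379 and 510 CPM in F1BC livers and 404 and 407 CPM in PB livers. Its F1CB livers were the highest and its PC livers the lowest of the 8. The log2 fold change of F1CB over PC was 1.72 ± 0.39 (SE, adjusted p = 0.0428 by limma), and leaving out any library other than PC liver 2 moved the adjusted p above 0.05. Over all alternatives the adjusted p by limma ran between 0.0198 and 0.235, and on the values as deposited the log2 fold change was 1.49 with 0.0592. Larger log2 fold changes that did not pass were those of rpl13, 2.099 in F1BC over PC (adjusted p = 0.114 by limma) and 1.84 in F1CB over PC (adjusted p = 0.104 by limma). The lowest were those of rpl35a in F1BC over PC, -0.12, and of rpl38 in F1CB over PC, -0.41. Both turned to positive values without PC liver 1, of 0.13 and 0.02.

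**Figure D5:**
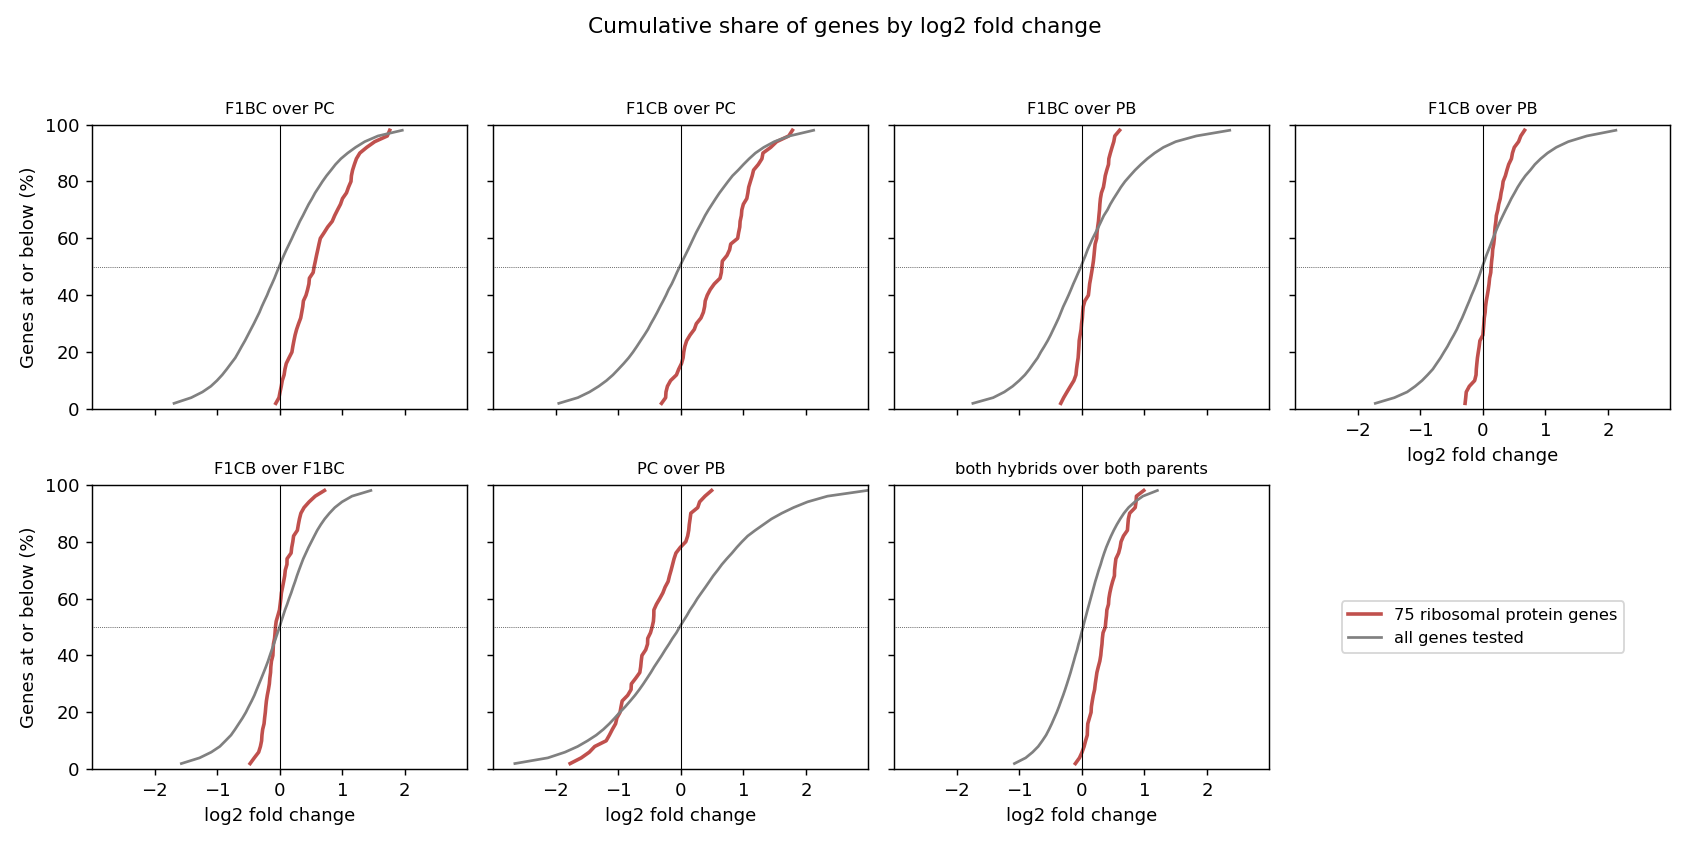
Share of genes (y axis, %) at or below each log2 fold change (x axis) in the 7 comparisons, for the 75 ribosomal protein genes in red and all genes tested in grey. The red curve is displaced to the right in both comparisons of hybrids with PC (medians 0.55 and 0.66) and to the left in PC over PB (median -0.46). Over its middle part it is steeper than the grey curve in all 7 comparisons.

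Against blue catfish the hybrids showed little difference in ribosomal protein genes. In F1BC over PB 52 of 75 genes were positive, beside 49.2% of all genes, with a median of 0.17. In F1CB over PB 55 were positive, beside 49.4% of all genes, with a median of 0.13. No gene was called in either by limma, against 2.72% of all genes in F1BC over PB and 1.82% in F1CB over PB, and an unadjusted p under 0.05 was reached by 2 genes in F1BC over PB, beside 17.7% of all genes, and by 0 in F1CB over PB, beside 14.7%. The livers lay wholly higher for 15 genes and wholly lower for 5 in F1BC over PB, beside 25.7% and 27% of all genes, and for 18 and 3 in F1CB over PB, beside 23.3% and 23%. Other genes over 300 CPM had medians of 0.37 in F1BC over PB and 0.27 in F1CB over PB, both above those of the ribosomal protein genes. The signs of both medians depended on the scaling. On the deposited values they were -0.20 in F1BC over PB, where the median of all genes was -0.35, and -0.06 in F1CB over PB, where it was -0.18, and after quantile normalization they were -0.092 and -0.089. The F1BC median also turned negative without F1BC liver 2, and the F1CB median without F1CB liver 1.

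Single genes at the ends of these comparisons showed modest differences. The rpl14 gene, of the large subunit, had 1465 and 1114 CPM in F1BC livers, against 604 and 671 CPM in PB livers, a log2 fold change of 1.005 (adjusted p = 0.215 by limma). The rpl12 gene, whose protein forms the base of the stalk, had 747 and 889 CPM in F1BC livers, against 1391 and 1679 CPM in PB livers, a log2 fold change of -0.91 (adjusted p = 0.235 by limma). These livers did not overlap, and they were the 2 genes with an unadjusted p under 0.05. In F1CB over PB the highest was rps13, with 586 and 519 CPM in F1CB livers against 344 and 281 CPM in PB livers (log2 fold change 0.82, adjusted p = 0.413 by limma). At the other end rps29 had 337 and 253 CPM in F1CB livers, against 509.8 and 302 CPM in PB livers (log2 fold change -0.43, adjusted p = 0.716 by limma).

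F1CB and F1BC, made by crossing the species in opposite directions, had no ribosomal protein gene past a threshold. In F1CB over F1BC 33 of 75 genes were positive, beside 49.8% of all genes, the median was -0.07 (0.11 on the deposited values, where that of all genes was 0.15, -0.27 without F1BC liver 1 and 0.17 without F1CB liver 2), and 0 genes were called by limma, against 0.134% of all genes, with 0 at an unadjusted p under 0.05 beside 8.52% of all genes. The livers lay wholly higher in F1CB for 9 genes and wholly lower for 2, beside 22.8% and 23.3% of all genes. The rpl12 gene had 1413 and 1412 CPM in F1CB livers, against 747 and 889 CPM in F1BC livers, a log2 fold change of 0.79 with an unadjusted p of 0.0570 (adjusted p = 0.601 by limma). In rpl12 F1CB lay with PB and F1BC with PC, whose livers had 696 and 748 CPM. At the other end rpl38 had a log2 fold change of -0.66 in F1CB over F1BC (adjusted p = 0.753 by limma).

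With both hybrids set against both parents, 70 of 75 genes were positive, beside 51.5% of all genes, and the median log2 fold change was 0.37. Among other genes over 300 CPM the median was 0.39 and 83.2% were positive, with medians of 0.27 over 50 CPM and 0.33 over 100 CPM, while 94.1% of the ribosomal protein genes over 300 CPM were positive. No gene was called by limma, against 0.239% of all genes. An unadjusted p under 0.05 was reached by 12, all higher in hybrids, beside 919 of the 13408 genes tested in that direction and 11.7% in either direction. The 4 hybrid livers lay wholly above the 4 parental livers for 3 genes, rpl4, rpl21 and rps13, and wholly below for none, beside 1.38% and 2.09% of all genes. The rps13 gene had 374 and 526 CPM in F1BC livers, 586 and 519 CPM in F1CB livers, 111 and 235 CPM in PC livers, and 344 and 281 CPM in PB livers. Its log2 fold change was 1.14 ± 0.31 (SE, adjusted p = 0.202 by limma), the largest of the set. On the deposited values the median over the 75 genes was 0.08, where the median of all genes was -0.25, and after quantile normalization it was 0.09.

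A gene counted as transgressive, by the limits the study set, when its hybrid mean passed the higher parent by a factor of 1.2 or stayed under the lower parent by a factor of 0.8. By that rule 17 ribosomal protein genes lay above both parents in F1BC, beside 12.2% of all genes, and 0 below, beside 14.9%. In F1CB 17 lay above, beside 12.1% of all genes, and 1 below, which was rpl38 and beside 15.7% of all genes. In both hybrids 9 lay above, beside 4.38% of all genes, among them rps13, rpsa, rpl28, rpl17, rpl27, rpl21, rpl4 and the rpl19 entry ENSIPUG00000023215. None lay below in both, beside 6.11% of all genes. In each hybrid a larger share of all genes met these limits here than the paper reports as transgressive. The paper also reports ribosome function as enriched among genes transgressive in a single hybrid, which was not tested here. The rule carries no test, and the number depended on single livers and on the scaling. With genes above and below counted together, it rose without F1BC liver 1 in F1BC and without F1CB liver 2 in F1CB. It fell without F1BC liver 2 in F1BC and without F1CB liver 1 in F1CB. On the deposited values 2 genes met the rule in F1BC and 10 in F1CB, again above and below together. The shares of all genes under these settings are not given here.

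Genes of the stalk and its base had negative log2 fold changes in PC over PB, as had 58 of the 75 genes of the set. Of the stalk genes rplp1 passed the test, and differences between these genes were not tested. The rplp0 gene, for the protein that anchors the stalk, had 787 and 1863 CPM in PC livers, against 2063 and 1343 CPM in PB livers, a log2 fold change of -0.46 (adjusted p = 0.541 by limma), and PC liver 2 lay between the PB livers. The rpl12 gene at the base had 696 and 748 CPM in PC livers, against 1391 and 1679 CPM in PB livers, a log2 fold change of -1.08 (adjusted p = 0.0676 by limma) with livers that did not overlap. The genes rpp-2 and rplp2l, described as ribosomal protein P2 and P2-like and outside the symbol rule, had log2 fold changes of PC over PB of -0.75 (adjusted p = 0.202 by limma) and -0.32 (adjusted p = 0.586 by limma). The rpsa gene, for a small subunit protein also known as the laminin receptor, had 1279 and 1713 CPM in F1BC livers, 1547 and 1139 CPM in F1CB livers, 363 and 1040.4 CPM in PC livers, and 1250.2 and 741 CPM in PB livers. All hybrid livers of rpsa lay above both PC livers, but PB liver 2 lay between the PC livers, and no comparison of rpsa passed the test.

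Repeated symbols and close relatives were kept apart by identifier. RPL19 ENSIPUG00000020766 averaged 877 scaled CPM over the 8 livers and the L19-like entry rpl19 ENSIPUG00000023215 averaged 137 CPM, and their log2 fold changes of F1BC over PC were 0.99 and 0.96. Reads of such near copies could have been split by the mapping. The rpl22 gene had 635 and 684 CPM in PC livers, against 706 and 910.0 CPM in PB livers, and its paralog rpl22l1 101 and 96.7 CPM in PC livers, against 137 and 86.1 CPM in PB livers. The other pairs of like symbols, such as rpl7 and rpl7a or rpl13 and rpl13a, encode unrelated proteins. Of the 2 genes with the symbol rpl37, ENSIPUG00000005347 had 273 to 459 CPM. The other, ENSIPUG00000008717, had 0.460 to 3.75 CPM and is described in the table as a homolog of cytochrome c oxidase assembly factor 1, so its symbol and description disagree.

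Some ribosomal protein genes had a near constant ratio to the gene next to them in the order in which the authors deposited the genes. Genome positions are not used here. The plekhg6 gene stood at 37.8% and 39.7% of rpl18 in F1BC livers, 39.7% and 35.7% in F1CB livers, 39.9% and 41.5% in PC livers, and 32.4% and 41.2% in PB livers. The SD of the log2 ratio of plekhg6 over rpl18 across the 8 libraries was 0.12. PC liver 1 had 126 CPM of plekhg6 and 315 CPM of rpl18, and PC liver 2 377 and 909 CPM. A closer pair was rps23 and ENSIPUG00000007206, whose ratio stayed between 98.99% and 99.97% with an SD of 0.0058. The ratio of ENSIPUG00000013637 to rps3a was between 24.5% and 29.1%, and that of ptk2aa to rplp1 between 54.2% and 78.5%. In all, 5 of 29 pairs of a ribosomal protein gene and an adjacent gene, both over 50 CPM, had an SD under 0.2, beside 60 of 367 adjacent pairs over all genes. Whether reads were shared between overlapping genes was not tested. Without rpl18 the summed shares were 7.92% in F1BC, 9.02% in F1CB, 7.39% in PC and 9.43% in PB.

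A further 13 genes are described as ribosomal proteins but carry other symbols or none, and none of them was called in any comparison. In PC over PB 10 of 13 were negative with a median of -0.37, no gene passed both limma thresholds, 4 had an unadjusted p under 0.05 and 1, described as S17 (ENSIPUG00000015246), had an adjusted p under 0.05. It had 408 and 734 CPM in PC livers, against 1436 and 1411 CPM in PB livers, with a log2 fold change of -1.38 (adjusted p = 0.0375 by limma). The fusion gene fau, which releases a ribosomal protein from a ubiquitin-like protein, had a log2 fold change of PC over PB of -0.37 (adjusted p = 0.547 by limma).

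Companion genes of the ribosome were read from a list of 14 found genes. In PC over PB 2 of the 14 were called lower and 1 higher in PC, beside 7.2% and 8.79% of all genes. In F1BC over PC and in F1CB over PC 1 was called in each, beside 0.947% and 2.17% of all genes. The btf3 gene, for a subunit of the nascent chain complex at the ribosome exit, had 303 and 402 CPM in F1BC livers, 356 and 311 CPM in F1CB livers, 49.6 and 118 CPM in PC livers, and 429 and 579 CPM in PB livers. Both PC livers lay far below the other 6, and btf3 was called in 3 comparisons, with log2 fold changes of -2.69 in PC over PB (adjusted p = 0.00266 by limma), 2.18 in F1BC over PC (adjusted p = 0.0473 by limma) and 2.11 in F1CB over PC (adjusted p = 0.0364 by limma). The tpt1 gene, for the translationally controlled tumour protein, had 343 and 885 CPM in PC livers, against 2737 and 2104 CPM in PB livers, a log2 fold change of -2.12 (adjusted p = 0.0119 by limma). The elongation factor gene eef1a2 was called higher in PC, at 29.7 and 9.77 CPM in PC livers, against 3.32 and 3.597 CPM in PB livers (adjusted p = 0.0210 by limma). A far more abundant gene, ENSIPUG00000019880, is described as elongation factor 1-alpha-like and averaged 5728 CPM. It has no symbol, so it is not on the list, and its comparisons are not reported here. The scaffold gene rack1 had 742 and 914 CPM in PC livers, against 1543 and 1607 CPM in PB livers, with an adjusted p of 0.123 by limma, and the elongation factor gene eef2b had 1172 and 1752 CPM in PC livers, against 1840.1 and 1467 CPM in PB livers.

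Other gene groups of translation also had negative medians in PC over PB. Of 74 mitochondrial ribosomal protein genes 10 were called, all lower in PC, and the median log2 fold change of PC over PB was -0.52. Examples are mrps5, with 2.13 and 4.58 CPM in PC livers, against 17.95 and 16.9 CPM in PB livers (adjusted p = 0.00907 by limma), and mrpl41, with 2.31 and 8.20 CPM in PC livers, against 17.0 and 20.9 CPM in PB livers (adjusted p = 0.0277 by limma). Of 128 ribosome biogenesis genes 16 were called lower and 1 higher in PC, with a median of -0.52. The low genes included pwp1 and utp23, both factors of rRNA processing, and the high one was taf1b, a subunit of the RNA polymerase I initiation factor SL1, at 55.8 and 25.5 CPM in PC livers, against 4.37 and 4.36 CPM in PB livers. Of 76 translation factor genes 4 were called lower and 2 higher in PC, with a median of -0.53. Of the 2 higher genes, eef1a2 also stands among the companion genes. These shares stood beside the background of 7.2% of all genes called lower and 8.79% called higher in PC.

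Among 24 genes of mTOR signalling and its control of terminal oligopyrimidine messenger RNAs, 2 were called lower and 2 higher in PC than in PB, beside 16% of all genes called in either direction. Of these 4, eif4ebp1 and eif4ebp3 also stand on the list of translation factors and were counted there. The eif4ebp1 gene, whose protein represses cap-dependent translation until mTOR phosphorylates it, had 15.2 and 10.8 CPM in F1BC livers, 11.96 and 17.99 CPM in F1CB livers, 1.39 and 3.23 CPM in PC livers, and 27.7 and 20.5 CPM in PB livers. Its PC livers lay below all others, with log2 fold changes of -3.20 in PC over PB (adjusted p = 0.00129 by limma), 2.32 in F1BC over PC (adjusted p = 0.0448 by limma) and 2.51 in F1CB over PC (adjusted p = 0.0220 by limma). The related eif4ebp3 was called in the other direction, at 19.5 and 19.1 CPM in PC livers, against 9.51 and 0.893 CPM in PB livers (adjusted p = 0.0358 by limma). In F1CB over PC 2 biogenesis genes and 2 translation factor genes were called, all higher in F1CB and beside 2.17% of all genes, among them the initiation factor gene eif3g with 254 and 302 CPM in F1CB livers, against 49.5 and 96.4 CPM in PC livers (adjusted p = 0.0342 by limma).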

How the data were processed

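Polyadenylated RNA of 8 livers was sequenced. As the submitters' notes and methods give it, reads were checked with FastQC 0.11.5, trimmed with Trimmomatic, mapped with TopHat2 2.1.1 to the channel catfish genome, counted with bedtools 2.29.0 and scaled with edgeR. The genome build, the sequencing depth and the use of strand in counting are not given in the sources used here, so overlapping genes are uncertain. The values deposited by the authors as RPKM are CPM, since library sums lay near a common total (996838 to 998652) and a log2 column of mean CPM, also by the authors, lay a median of -0.0089 from them, or -1.68 when they were divided by transcript length. That log2 column of the authors was used only for this check. The design had assumed RPKM, and the same test was kept.

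Values were scaled by median of ratios over genes above 0 in every library. A gene was tested if any type's mean exceeded 1 CPM (13408 of 13444 genes). The test was that of limma 3.58.1 in R 4.3.3 on log2(scaled CPM + 0.5), so fold changes are on that scale, with a trend in the prior variance, all 8 libraries in 1 fit and Benjamini-Hochberg adjustment over all genes within each of 7 comparisons. Both an absolute log2 fold change above 1.5 and an adjusted p below 0.05 were needed for a call. Whole reads could not be recovered, so no count model was run. The fit was checked on simulated data.

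Alternatives covered pseudocounts of 0.1 and 1, no filter or a mean over 5, deposited values, quantile normalization, scaling without the ribosomal protein genes, fits of the compared types alone, no trend, a replicate block and each library left out. The members and lists were chosen with earlier results of these data known. Named genes were those called, the 5 most abundant, the ends of each comparison, stalk genes, rpsa, like symbols, rpl18 with plekhg6, and of the lists at most 4 called. The set of other genes over 300 CPM, rps6, rpl15 and rps27a were chosen after values were seen. Some genes of the set are counted but not reported by name here.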

Additional observations from a re-analysis of the deposited data

How the results depend on the processing

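Directions of the set held under most settings. The median log2 fold change of the ribosomal protein genes moved by more than the pooled SD of the library medians, 0.25, as follows. On the deposited values it was 0.14 in F1BC over PC, -0.20 in F1BC over PB and 0.076 for both hybrids over both parents. After quantile normalization it was 0.25 in F1BC over PC, 0.33 in F1CB over PC, -0.092 in F1BC over PB and 0.092 for both hybrids over both parents. The cause was not tested, though the median of all genes itself was -0.37 in F1BC over PC on the deposited values. In F1CB over PC 0 genes were called on the deposited values, 0 in a fit of the compared types alone, 0 without the trend in the prior variance and 2 with the replicate block. In PC over PB 0 were called in a fit of the compared types alone, which has fewer residual degrees of freedom. By the rule for transgressive genes, above and below together, the deposited values gave 2 in F1BC and 10 in F1CB, and quantile normalization 3 and 8. The shares of all genes called or transgressive under these settings are not given here.

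Without 1 library at a time, the number called was 0 to 6 in F1BC over PC, 0 to 13 in F1CB over PC, 0 to 14 in PC over PB and 0 to 1 for both hybrids over both parents. Those fits assume that the lone liver varied like the others. Transgressive genes numbered 2 to 38 in F1BC and 11 to 40 in F1CB. The rpl35a log2 fold change in F1BC over PC ran between -0.36 and 0.13, turning positive without F1BC replicate 1 (0.069) and without PC replicate 1. That of rpl38 in F1CB over PC ran between -0.83 and 0.018 (without PC replicate 1). That of rpl39 for both hybrids over both parents, the lowest gene there, ran between -0.28 and 0.054 (without PB replicate 1), with 0.02 without PC replicate 1.

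No label ties fish of the same number. The differences of liver 1 minus liver 2 correlated between types at -0.01 to 0.14, over 0.1 in some pairs of types but not in all, and the replicate block gave 2 calls in F1CB over PC and 4 in PC over PB and changed no other number called. With 2 livers a type and a depth not given here, a difference that was not called is not shown to be absent.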
